A study of Mus musculus with 3 samples.

Results

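The genes described here are the amino acid and metal ion transporters of mouse embryonic stem cells, taken as every gene whose symbol starts with Slc1a, Slc3a, Slc6a, Slc7a, Slc30a, Slc36a, Slc38a, Slc39a, Slc40a or Slc43a. The rule found 92 of the 32285 genes in the count tables. Of these, 88 are carriers or their partner chains, 63 in the families that mainly carry amino acids and related compounds and 25 in the Slc30a, Slc39a and Slc40a families, which carry metal ions. The other 4 (Slc7a6os, Slc36a3os, Slc36a1os and Slc6a19os) are genes on the opposite strand that share only the start of the symbol.

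The cells were E14tg2a embryonic stem cells of genotype Fgf4 -/-, in which the gene for the main autocrine FGF of these cells is mutated. All had been seeded in medium with LIF and then spent 24 h in N2B27, a serum-free medium, with the GSK3 inhibitor Chiron and 1 µg/ml heparin. The groups received 0, 5 or 50 ng/ml FGF4 and held 373, 874 and 975 cells. Each dose was 1 library, so no test between doses was possible. Ranges in brackets are 95% intervals for counting error, and "higher" and "lower" describe these libraries. Whether the line was 1 clone was not given in the labels.

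The libraries held 42726514, 75184072 and 81409975 UMIs (unique molecular identifiers, 1 for each captured transcript) at 0, 5 and 50 ng/ml, and shared 0 cell barcodes. Cells with under 10000 UMIs made up 1.61%, 12.5% and 9.74% of the libraries. All 8 pluripotency markers were measured, at 4809, 4843 and 4669 summed CPM (UMIs scaled to the library total), and 0 of 8 fibroblast markers averaged 5 CPM. Summed neural markers stood at 129, 44.3 and 40.4 CPM (3 of 6 averaging at least 5 CPM), primitive endoderm markers at 2.29, 1.49 and 3.78 CPM (0 of 6), trophectoderm markers at 13.5, 21.3 and 27.1 CPM (2 of 6) and markers of 2-cell-like cells, a rare state of these cultures, at 22.1, 5.85 and 40.4 CPM (2 of 5). The part of these markers in the results was not tested. With cells left out that had over 10% mitochondrial UMIs or a depth more than 3-fold from their library's median (359, 706 and 798 kept), log2 ratios at 50 against 0 ng/ml were 3.32 for Slc7a7, 2.97 for Slc39a14 and 1.25 for Slc1a3, near those of all cells.

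Amino acids cross membranes on carriers that differ in substrate and in what they exchange or couple to. Slc7a proteins work mainly either alone, as carriers of cationic amino acids, or as light chains that need a heavy chain, mostly Slc3a2, to reach the cell surface. Slc38a and Slc1a carriers take up glutamine, other neutral amino acids and glutamate with sodium, and Slc6a carriers take up compounds such as taurine, creatine and glycine. For zinc, Slc39a (ZIP) carriers move the ion into the cytosol and Slc30a (ZnT) carriers move it out of the cytosol, while Slc40a1 (ferroportin) exports iron.

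Promoter windows are shown for 3 members. Slc7a7 had the largest ratio to 0 ng/ml of all measured members, Slc7a11 is a textbook target of ATF4, the transcription factor of the amino acid response, and Slc39a11 had the largest ratio in the other direction among members with over 100 UMIs in each library. The windows run from 250 bases before to 50 bases after the gene start in RefSeq, build GRCm38.p6, and are written 5′ to 3′ along the gene. RefSeq lists 5 starts for Slc7a7, 1 for Slc7a11 and 2 for Slc39a11, and the one nearest the GENCODE start is shown. They lie at chr14:54417653-54417952 (minus strand), chr3:50443564-50443863 (minus strand) and chr11:113650043-113650342 (minus strand). Capitals in Slc7a7 and Slc7a11 mark TGATGNAA on either strand, the core of the amino acid response element. Capitals in Slc39a11 mark CCGGAAG, an ETS factor core, and TGCGCNC on the reverse strand, a core of the metal response element.
Slc7a7: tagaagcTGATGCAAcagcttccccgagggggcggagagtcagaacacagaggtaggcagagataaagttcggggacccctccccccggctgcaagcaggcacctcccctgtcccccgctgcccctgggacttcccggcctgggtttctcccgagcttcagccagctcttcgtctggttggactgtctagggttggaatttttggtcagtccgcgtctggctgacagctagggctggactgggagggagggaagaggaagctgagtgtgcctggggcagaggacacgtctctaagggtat
Slc7a11: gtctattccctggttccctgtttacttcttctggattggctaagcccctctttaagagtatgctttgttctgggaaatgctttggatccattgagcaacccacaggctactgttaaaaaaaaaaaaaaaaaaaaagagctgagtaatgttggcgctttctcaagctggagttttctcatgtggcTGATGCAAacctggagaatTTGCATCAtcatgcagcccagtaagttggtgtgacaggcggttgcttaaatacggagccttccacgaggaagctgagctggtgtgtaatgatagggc
Slc39a11: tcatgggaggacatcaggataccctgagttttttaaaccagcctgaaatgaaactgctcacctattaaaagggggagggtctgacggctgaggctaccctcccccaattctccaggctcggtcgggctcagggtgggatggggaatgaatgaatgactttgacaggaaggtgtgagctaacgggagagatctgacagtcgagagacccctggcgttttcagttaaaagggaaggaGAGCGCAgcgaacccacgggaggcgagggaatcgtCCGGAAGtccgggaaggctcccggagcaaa

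TGATGNAA began 243 bases before the start shown for Slc7a7 and was present in 2 of the 5 windows of that gene, and its matches in Slc7a11 began 66 and 47 bases before the start. This core was present in 5.26% of the members' 95 windows and in 3.97% of all 32851 windows. In Slc39a11 the ETS core began 20 bases after the start, and the metal response element core began 15 bases before it. CCGGAAG was present in 14.7% of the members' windows and 8.86% of all windows, and the metal response element core, searched as TGCGCNC or TGCACNC, in 26.3% and 25.7%. Both strands were searched, 69 of the 92 genes had a window, the motifs were chosen with earlier results in view, and a match describes letters only.

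The members differed widely in level. Of the 92, 36 averaged at least 5 CPM over the 3 libraries and are called measured here, 12 averaged 1 to 5 CPM, and 44 averaged under 1 CPM, among them 5 with 0 UMIs in every library. The 36 comprised 22 genes of the amino acid families, 13 of the metal families and Slc7a6os. Each UMI stands for a transcript 3′ end, so levels are counts of transcripts and do not scale with transcript length.

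**Figure D1:**
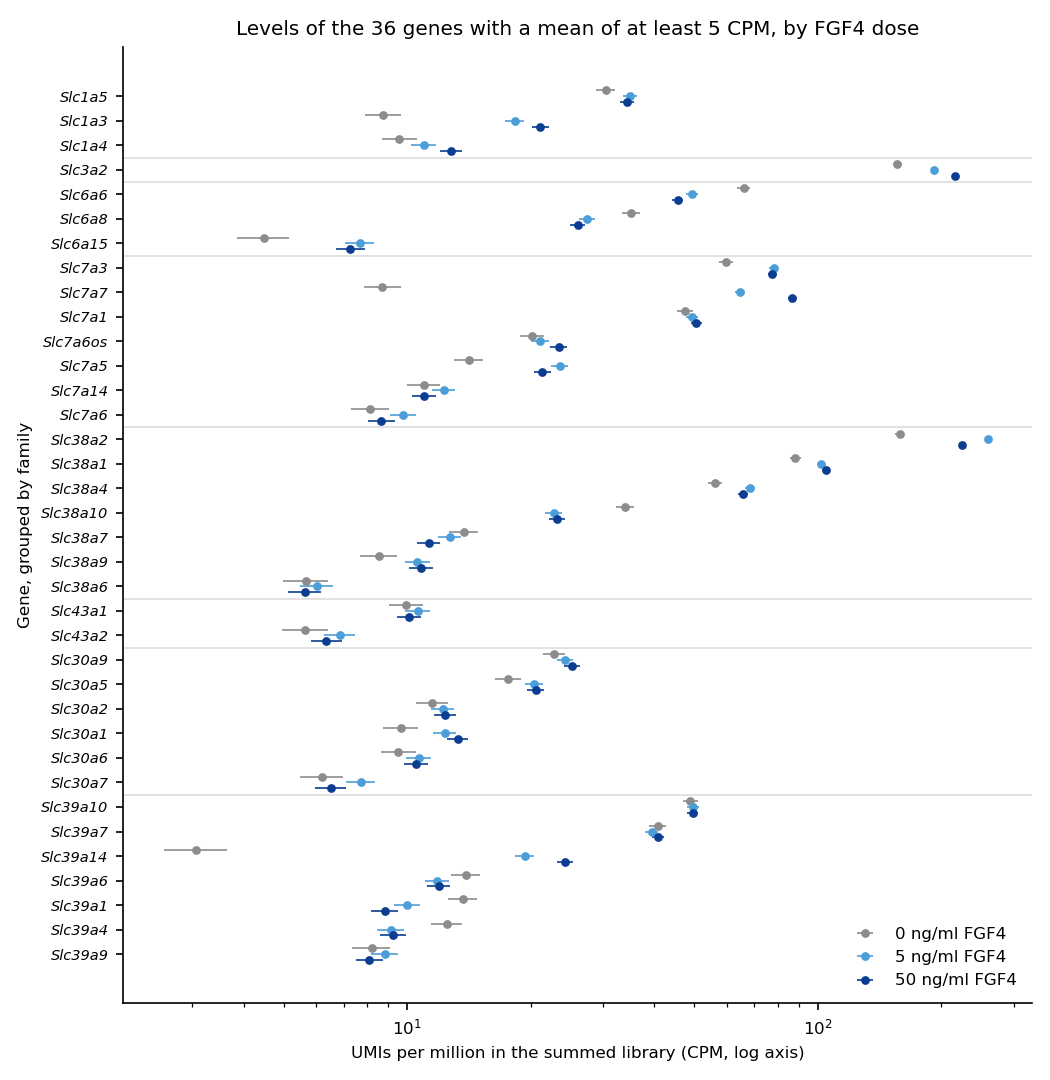
Levels of the 36 measured genes (x axis, CPM, log axis), grouped by family (y axis). Points are the libraries at 0, 5 and 50 ng/ml FGF4 and bars are 95% counting intervals; for most genes the points lie close together, while Slc7a7 and Slc39a14 have their 0 ng/ml points far to the left, at 8.71 and 3.07 CPM.

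At 5 ng/ml against 0, 3 of the 36 measured members were higher by 2-fold or more and 0 lower by as much, against a background of 2.04% higher and 1.43% lower over the 9137 genes with the same minimum level. At 50 ng/ml against 0, 3 were again higher and 0 lower, against a background of 2.41% and 2.45%. The 3 genes were Slc7a7, Slc39a14 and Slc1a3 in both comparisons, which share the 0 ng/ml library. At 50 ng/ml against 5, 0 were higher and 0 lower, with a background of 0.164% and 0.0657%. A mean over 1 library without and 2 with FGF4 favours genes that are high with FGF4. Slc39a14 passed it through the libraries with FGF4 alone, and Slc39a11, at 7.7 CPM without FGF4, did not pass it. With 5 CPM in any library as the level, 37 members were measured and Slc39a11 was counted as well, so that 3 were higher and 1 lower in both comparisons with 0 ng/ml. The background was then 2.26% higher and 2.15% lower at 5 against 0 ng/ml and 2.63% and 3.44% at 50 against 0.

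The median log2 ratio of the 36 was 0.18 at 5 against 0 ng/ml and 0.14 at 50 against 0, where all 9137 genes had medians of 0.02 and -0.00. At 50 against 5 ng/ml the medians were -0.01 for the members and -0.02 for all genes. Intervals lay wholly above 1 for 18 of the 36 and wholly below 1 for 7 at 50 against 0 ng/ml. Over all 9137 genes the shares above and below were near equal, at 35.9% and 36.6%. Most of the members' differences were below 1.5-fold. Of the 12 genes averaging 1 to 5 CPM, 3 were at least 2-fold lower at 50 against 0 ng/ml (Slc39a11, Slc36a1 and Slc7a8) and 0 higher, where 12.6% of the 3087 genes of that level were lower and 6.41% higher.

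**Figure D2:**
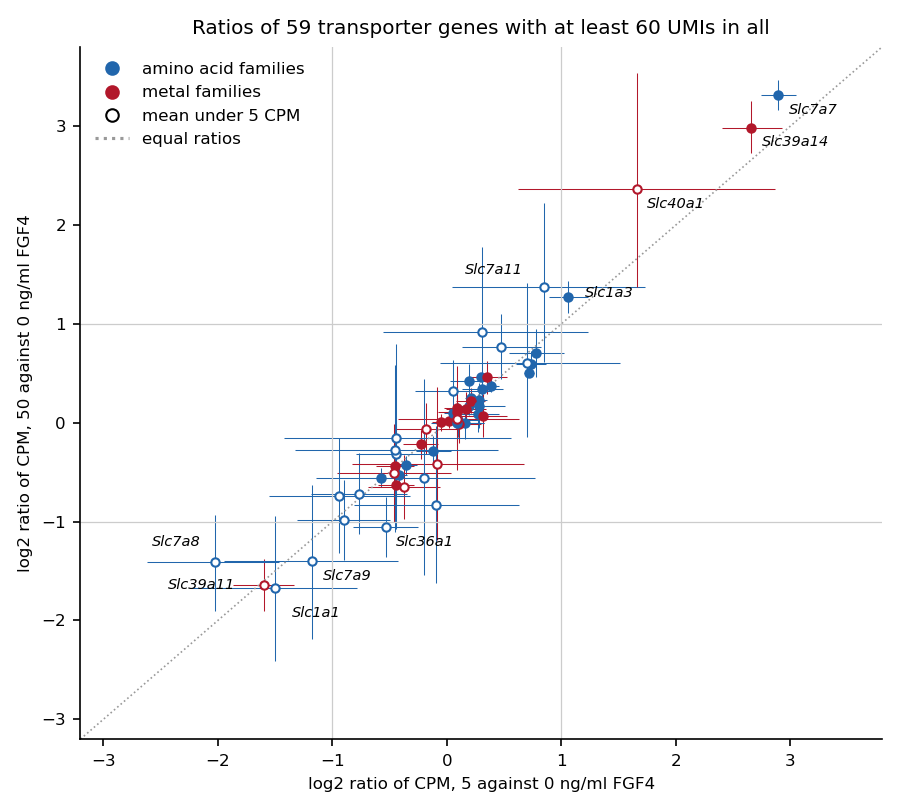
Log2 ratio of CPM at 5 against 0 ng/ml FGF4 (x axis) and at 50 against 0 (y axis) for the 59 carriers with at least 60 UMIs in all. Bars are 95% counting intervals, open points average under 5 CPM and grey lines mark 2-fold; both axes use the same 0 ng/ml library, and Slc7a7 lies at 2.89 and 3.32.

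Slc7a7 (ENSMUSG00000000958, 14:54369442-54417780, minus strand) encodes the light chain y+LAT1, which with Slc3a2 exchanges cationic amino acids such as arginine and lysine for neutral amino acids and sodium. In humans its loss causes lysinuric protein intolerance. It had 372, 4867 and 7061 UMIs at 0, 5 and 50 ng/ml, which made 8.71, 64.7 and 86.7 CPM. The level without FGF4 was low, and both libraries with FGF4 were far above it. Slc7a7 was 9.96-fold higher (8.97 to 11.1) at 50 ng/ml than at 0, 7.44-fold higher (6.69 to 8.28) at 5 than at 0 and 1.34-fold higher (1.29 to 1.39) at 50 than at 5. On the log2 scale 87.3% of the difference at 50 ng/ml was reached at 5 ng/ml. At 50 ng/ml Slc7a7 was exceeded among the members by Slc38a2, Slc3a2 and Slc38a1.

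Slc3a2, the heavy chain also called 4F2hc or CD98, had 156, 192 and 215 CPM at 0, 5 and 50 ng/ml. It was 1.38-fold higher (1.34 to 1.42) at 50 than at 0 and 1.23-fold higher (1.19 to 1.26) at 5 than at 0. Its light chains together had 33.4, 99.3 and 119 CPM and were 3.54-fold higher (3.35 to 3.75) at 50 than at 0. The summed light chains thus differed more between doses than the heavy chain did, and lay below it in every library. Slc7a7 alone made up 8.71, 64.7 and 86.7 of those CPM, so the difference in the sum was mainly that of 1 gene.

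The make-up of the light chains also differed. Slc7a7 held 26%, 65.2% and 73.2% of their UMIs at 0, 5 and 50 ng/ml. Slc7a5 (LAT1, a carrier of large neutral amino acids such as leucine) held 42.3%, 23.7% and 18%, and Slc7a6 (y+LAT2, the closest relative of Slc7a7) held 24.3%, 9.85% and 7.31%. The leading light chain was Slc7a5 in the library without FGF4 and Slc7a7 in both libraries with FGF4.

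The lower shares of Slc7a5 and Slc7a6 with FGF4 did not come with lower levels. Slc7a5 had 14.1, 23.5 and 21.3 CPM and was 1.51-fold higher (1.37 to 1.66) at 50 than at 0 ng/ml, with its highest level at 5. Slc7a6 had 8.12, 9.78 and 8.66 CPM, within 1.5-fold across the libraries. Slc7a8 (LAT2), whose gene lies 304 kb from Slc7a7 on chromosome 14 and whose substrates overlap with those of Slc7a5, went the other way. It had only 88, 38 and 63 UMIs and was 2.66-fold lower (1.9 to 3.74) at 50 than at 0. Slc7a11 (xCT, which imports cystine in exchange for glutamate) was rare at 0.398, 0.718 and 1.03 CPM and was 2.59-fold higher (1.53 to 4.66) at 50 than at 0, from 17, 54 and 84 UMIs. Gm37498 and Gm37692 overlap it on the same strand. Slc3a1, the heavy chain that pairs with Slc7a9, had 7, 5 and 7 UMIs.

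**Figure D3:**
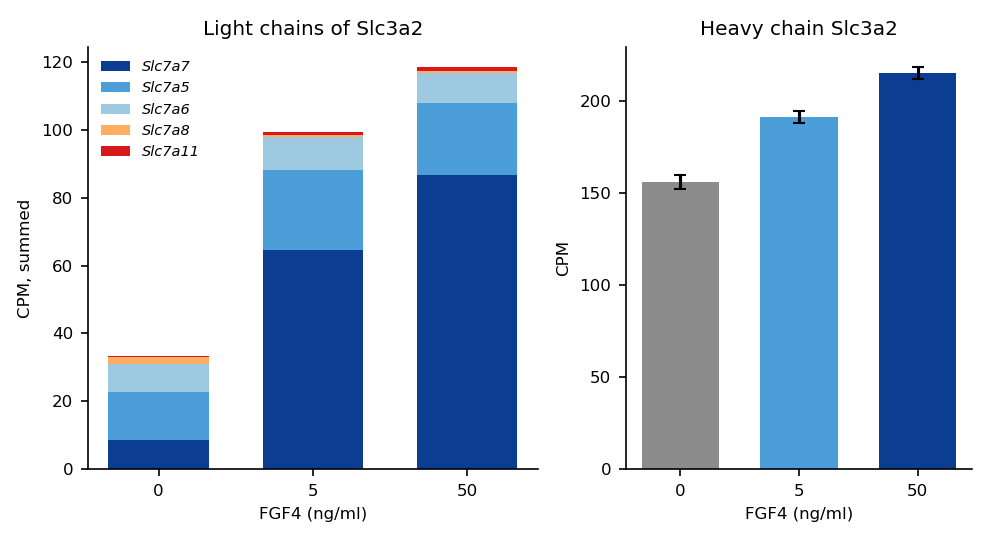
Left, CPM of the light chains of Slc3a2 stacked by gene (y axis) at 0, 5 and 50 ng/ml FGF4 (x axis); right, CPM of the heavy chain Slc3a2 with 95% counting intervals. The stack stands at 33.4, 99.3 and 119 CPM, with Slc7a7 the segment that differs most, while Slc3a2 stands at 156, 192 and 215 CPM.

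Cationic amino acid carriers that work without a heavy chain differed little. Slc7a3 (CAT3) had 59.8, 78.1 and 77.5 CPM and Slc7a1 (CAT1, the general carrier of arginine and lysine in most tissues) had 47.4, 49.4 and 50.6 CPM. With Slc7a2 they summed to 108, 128 and 129 CPM, 1.2-fold higher (1.15 to 1.24) at 50 than at 0 ng/ml. All 6 measured Slc7a carriers had a ratio above 1 at 5 against 0 ng/ml, 4 of them with an interval wholly above 1. Over all 9137 genes, 53.9% had a ratio above 1 at 5 against 0 and 49.9% at 50 against 0. At 50 against 0, all 6 again had a ratio above 1, 4 of them with an interval wholly above 1. The ratio of Slc7a14 was 1.00 (0.894 to 1.12), and it was below 1 with called doublets left out. The value of Slc7a14, at 11, 12.3 and 11 CPM, rested on 1 cell that held 204 of its 894 UMIs at 50 ng/ml. Without that cell Slc7a14 was 1.29-fold lower (1.15 to 1.46) at 50 than at 0, a setting chosen after the values were seen.

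The carriers of glutamine and small neutral amino acids were the most abundant members. Slc38a2 (SNAT2, a sodium-coupled carrier that rises when amino acids are scarce) had 158, 260.0 and 224 CPM at 0, 5 and 50 ng/ml and was 1.64-fold higher (1.6 to 1.69) at 5 than at 0 and 1.42-fold higher (1.38 to 1.46) at 50 than at 0. Its level was highest at 5 ng/ml, where it exceeded every other member, while at 0 ng/ml its interval overlapped that of Slc3a2. Slc38a1 (SNAT1) had 88.2, 102 and 105 CPM and Slc38a4 56.2, 68.3 and 65.9 CPM. The exchanger Slc1a5 (ASCT2, glutamine and other neutral amino acids) had 30.4, 34.8 and 34.3 CPM. These differed by less than 1.25-fold between any pair of libraries. Slc38a10 was 1.47-fold lower (1.37 to 1.57) at 50 than at 0, from 34, 22.8 and 23.1 CPM. The whole Slc38a family summed to 366, 483 and 447 CPM.

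Slc1a3 (EAAT1 or GLAST, a sodium-coupled carrier of glutamate and aspartate; ENSMUSG00000005360, 15:8634124-8710764, minus strand) was the third member past 2-fold. It had 374, 1374 and 1716 UMIs and 8.75, 18.3 and 21.1 CPM at 0, 5 and 50 ng/ml. It was 2.41-fold higher (2.15 to 2.7) at 50 than at 0 and 2.09-fold higher (1.86 to 2.35) at 5 than at 0. In the ratio of 5 to 0 it stood close to the 2-fold limit, at a log2 value of 1.06, and was below it (0.93) when each cell counted equally. A gene on the same strand, Gm37310, overlaps it, and reads of the overlap can be assigned to either. Slc1a1 (EAAT3), another glutamate carrier, was rare, with 45, 28 and 27 UMIs, and was 3.18-fold lower (1.93 to 5.32) at 50 than at 0. Slc1a3 held 85.4%, 96% and 97.1% of the UMIs of the 5 glutamate carriers. Slc1a1 held 10.3%, 1.96% and 1.53%, and Slc1a6 held 3.88%, 1.82% and 1.25%.

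The abundant Slc6a carriers were lower with FGF4. Slc6a6 (taurine) had 66, 49.4 and 45.6 CPM and was 1.45-fold lower (1.38 to 1.52) at 50 than at 0 ng/ml. It shares its strand with an overlapping gene, Gm45828, and reads there can be assigned to either. Slc6a8 (creatine) had 35.1, 27.4 and 26 CPM and was 1.35-fold lower (1.26 to 1.44) at 50 than at 0. Both differences were under 1.5-fold, and in each the libraries at 5 and 50 ng/ml were alike. Slc6a9 (glycine) had 2.81, 2.91 and 3.5 CPM and did not reach the minimum level. Slc36a1 (a proton-coupled carrier of small amino acids on lysosomes) had 4.49, 3.1 and 2.16 CPM, also below that level, and was 2.08-fold lower (1.69 to 2.57) at 50 than at 0 with an intermediate value at 5. Among genes singled out after their values were seen, Slc6a15, a neutral amino acid carrier, had 4.47, 7.67 and 7.27 CPM. The Slc43a family, whose measured members carry large neutral amino acids, summed to 18.1, 18.8 and 17.7 CPM. In all, the 63 genes of the amino acid families summed to 867, 1098 and 1102 CPM, 1.27-fold higher (1.26 to 1.29) at 50 than at 0 ng/ml. Slc7a7, Slc38a2 and Slc3a2 made up 8.71, 158 and 156 of those CPM at 0 ng/ml and 86.7, 224 and 215 at 50. Most of the difference in the sum was thus that of a few genes.

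Slc39a14 (ENSMUSG00000022094, 14:70303469-70351425, minus strand) encodes ZIP14, which carries zinc, manganese and iron not bound to transferrin. It had 131, 1454 and 1975 UMIs at 0, 5 and 50 ng/ml, or 3.07, 19.3 and 24.3 CPM. It was 7.91-fold higher (6.63 to 9.52) at 50 than at 0, 6.31-fold higher (5.27 to 7.6) at 5 than at 0 and 1.25-fold higher (1.17 to 1.34) at 50 than at 5. On the log2 scale 89% of the difference at 50 ng/ml was reached at 5 ng/ml. Within the Slc39a family it held 1.95%, 12.2% and 15% of the UMIs. The family sum was 158, 158 and 162 CPM. Of the other 6 measured members 4 had a ratio below 1 at 50 against 0, a number that ranged from 3 to 6 with the scaling and the choice of cells. Of all 9137 genes, 50.1% had a ratio below 1 there.

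Slc39a10 (ZIP10, a zinc importer of the plasma membrane) and Slc39a7 (ZIP7, which releases zinc from the endoplasmic reticulum) were the most abundant ZIP carriers, at 48.9, 49.7 and 49.6 CPM and 40.7, 39.4 and 40.8 CPM. Neither differed between any pair of libraries by as much as 1.25-fold. Slc39a10 shares its strand with 2 overlapping genes, Gm28151 and Gm37393, and Slc39a7 with Gm20427, and reads there can be assigned to either. Slc39a11 (ZIP11; ENSMUSG00000041654, 11:113244853-113650079, minus strand) had 329, 191 and 201 UMIs, a mean below 5 CPM, and was 3.12-fold lower (2.61 to 3.74) at 50 than at 0 and 3.03-fold lower (2.53 to 3.64) at 5 than at 0. Slc39a8 (ZIP8), the closest relative of Slc39a14, was near absent at 9, 18 and 10 UMIs, and Gm43428 and Gm43429 overlap it on the same strand.

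The zinc exporters of the Slc30a family summed to 80.5, 90.3 and 91.1 CPM and were 1.13-fold higher (1.09 to 1.18) at 50 than at 0 ng/ml. All 6 measured ones had a ratio above 1 at 5 and at 50 against 0, save that Slc30a6 was below 1 at 5 when each cell counted equally. In each comparison 3 of the 6 had an interval wholly above 1. Of all 9137 genes, 53.9% had a ratio above 1 at 5 against 0 and 49.9% at 50 against 0. The largest ratio was that of Slc30a1 (ZnT1, which exports zinc from the cell), at 9.67, 12.3 and 13.3 CPM and 1.37-fold higher (1.23 to 1.54) at 50 than at 0. Slc30a9, a zinc carrier of mitochondria, had 22.8, 24.2 and 25.2 CPM, and Slc30a5, which loads zinc into the secretory pathway, had 17.6, 20.3 and 20.6 CPM. The iron exporter Slc40a1 (ENSMUSG00000025993, 1:45908068-45926523, minus strand) was rare, with 9, 50 and 88 UMIs. It was 5.13-fold higher (2.58 to 11.6) at 50 than at 0, on intervals that reflect those counts. The 25 metal genes summed to 238, 249 and 254 CPM, 1.07-fold higher (1.04 to 1.09) at 50 than at 0 ng/ml. Slc39a14 alone made up 3.07, 19.3 and 24.3 of those CPM, so the higher sum is not a trait of the metal genes as a set.

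Per cell, the differences in Slc7a7 and Slc39a14 were spread over the cells. Each cell was thinned to 40000 UMIs, which kept 360, 706 and 793 cells and left out 13, 168 and 182 shallower ones. Slc7a7 was detected in 26.7%, 84.8% and 91.7% of thinned cells at 0, 5 and 50 ng/ml (intervals 22.2 to 31.6, 82 to 87.4 and 89.5 to 93.5), and in 44.2%, 82% and 86.1% of all cells unthinned. Slc39a14 was detected in 11.1%, 50.4% and 58.3% of thinned cells and 26.8%, 63.6% and 71.9% unthinned. Slc1a3 was detected in 25.6%, 47.9% and 50.1% thinned and 49.3%, 59.8% and 65% unthinned, and Slc39a11 in 26.1%, 9.63% and 8.2% thinned and 54.4%, 17.6% and 17.5% unthinned. No cell type lacking these genes is in the cultures, so free RNA could not be set against a background share.

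Detection of both Slc7a7 and Slc39a14 in a cell was near what the separate shares give. Both were found in 3.06%, 44.8% and 54.0% of cells at 0, 5 and 50 ng/ml, where the products of the shares were 2.96%, 42.8% and 53.4%. Neither was found in 65.3%, 9.49% and 4.04%. With Slc7a7 in most cells at 5 and 50 ng/ml, such shares leave little room to differ there. Slc7a7 had a variance over mean (Fano factor) of 1.56, 1.76 and 1.64, where genes of like mean had medians of 1.09, 1.18 and 1.21. Its value was above that of 95.8%, 94.2% and 88.3% of those genes. Without its top cell the value at 0 ng/ml was 1.39. Slc3a2 and Slc38a2 were found in nearly all cells, at median counts of 6, 7 and 8 and of 6, 10 and 8 UMIs.

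Correlations across cells of a library were weak, and in counts as sparse as these are given as description only. Slc3a2 with Slc7a7 gave r of 0.11, 0.13 and 0.24 over the 360, 706 and 793 cells of 0, 5 and 50 ng/ml. Slc3a2 with Slc38a1, which is not a light chain, gave 0.17, 0.13 and 0.13. Slc7a7 with Nanog, a naive pluripotency factor, gave -0.09, -0.27 and -0.24. Slc7a7 with Etv4, a target of ERK signalling, gave -0.01, 0.23 and 0.19. Slc7a7 with Slc39a14 gave -0.01, 0.19 and 0.13. Slc39a14 gave -0.07, 0.05 and 0.13 with Etv4 and 0.04, -0.11 and -0.06 with Nanog. Each pair with Etv4 or Slc39a14 changed sign between libraries, and no direction is read from these.

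**Figure D4:**
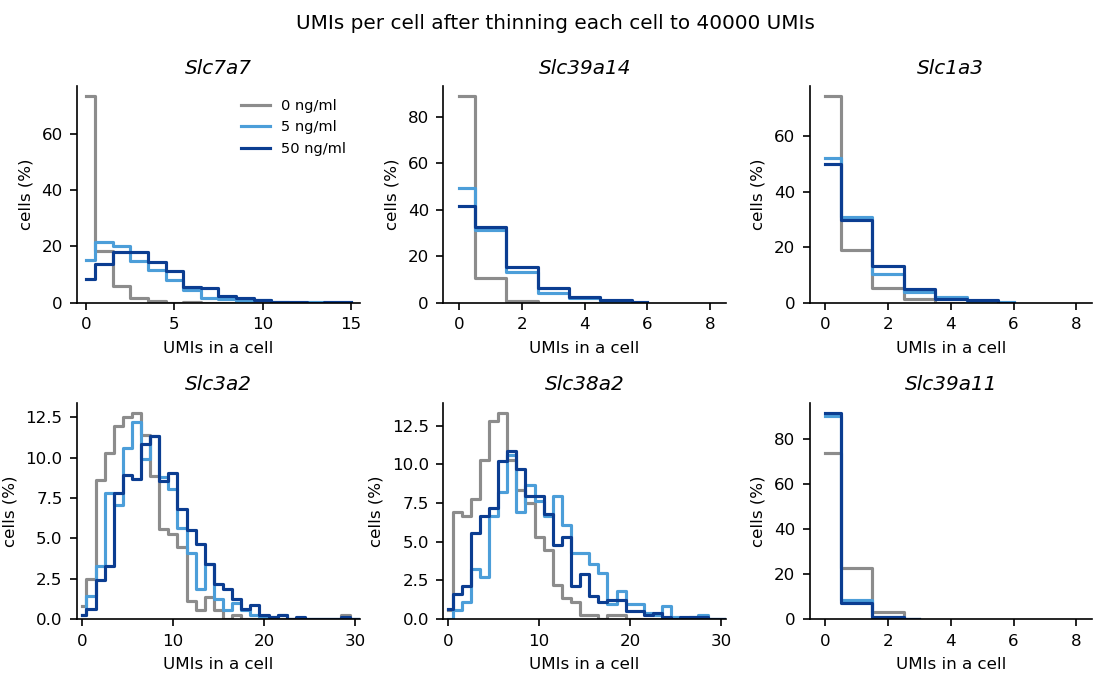
UMIs per cell (x axis) against the percentage of cells (y axis) for 6 genes after thinning each cell to 40000 UMIs, with 1 line for each FGF4 dose. The Slc7a7 and Slc39a14 lines of 5 and 50 ng/ml lie to the right of the 0 ng/ml line, while Slc39a11 lies to its left; the Slc3a2 and Slc38a2 panels stop at 30 UMIs, and single cells lie beyond.

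Related gene lists were read in the same way, by the same level and fold. Over all 9137 genes of that level, 2.41% were higher and 2.45% lower at 50 against 0 ng/ml, with a median log2 ratio of -0.00. Of 36 measured genes that sense amino acids towards mTORC1, 0 were 2-fold higher and 0 lower at 50 against 0 ng/ml, with a median log2 ratio of -0.03. The most abundant were Lamtor1, a part of the lysosomal anchor of mTORC1, at 167, 152 and 161 CPM, and its activator Rheb, at 122, 129 and 130.0 CPM. The list of the amino acid response held Atf4, kinases upstream of it and genes of its pathway, and its 28 symbols matched 29 annotated genes. Of 26 measured ones, 1 was higher and 0 lower, with a median of 0.17. The 1 was Chac1, a glutathione-degrading enzyme, at 6.32, 11.5 and 14.7 CPM. The most abundant were Eif4ebp1, an inhibitor of translation initiation, at 614, 593 and 657 CPM, and Asns, asparagine synthetase, at 415, 334 and 378 CPM.

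Among 22 measured genes of amino acid use, 1 was higher and 4 lower at 50 against 0 ng/ml, and 0 and 3 at 5 against 0. Over all 9137 genes the shares were 2.41% and 2.45% at 50 against 0, and 2.04% and 1.43% at 5 against 0. The median log2 ratio of the list at 50 against 0 was 0.12. Glul, glutamine synthetase, had 39.2, 71 and 82.3 CPM and was the higher one. The lower ones were Ckb, a creatine kinase, at 789, 259 and 221 CPM, Gss, glutathione synthetase, at 85.8, 29 and 23.5 CPM, Cdo1, cysteine dioxygenase, at 21.5, 8.15 and 6.09 CPM, and Ass1, an enzyme of arginine synthesis, at 197, 102 and 93.6 CPM. The most abundant of the list were Tdh, threonine dehydrogenase, at 506, 601 and 655 CPM, and Odc1, ornithine decarboxylase, at 344, 547 and 551 CPM.

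Of 27 measured genes of metal handling, 0 were 2-fold higher and 0 lower at 50 against 0 ng/ml, with a median of 0.03. The shares over all genes, here and for the next list, were again 2.41% and 2.45%. Fth1, the heavy chain of ferritin, had 919, 1105 and 1233 CPM, and the zinc-binding Mt1 had 1053, 977 and 918 CPM. Of 12 other amino acid carriers, 0 were higher and 1 lower, the peptide carrier Slc15a1, at 11.7, 1.96 and 1.39 CPM. The most abundant were the mitochondrial carriers Sfxn1 (serine), at 124, 159 and 161 CPM, and Slc25a13 (aspartate and glutamate), at 88.8, 81.1 and 78.3 CPM. That list also holds Slc7a6os, which is not a carrier. The ratios of Slc7a7 and Slc39a14 at 50 against 0 ng/ml were above those of every measured gene of these 5 lists. Both were known to be raised before the lists were set beside them, so this ranking is description only.

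**Figure D5:**
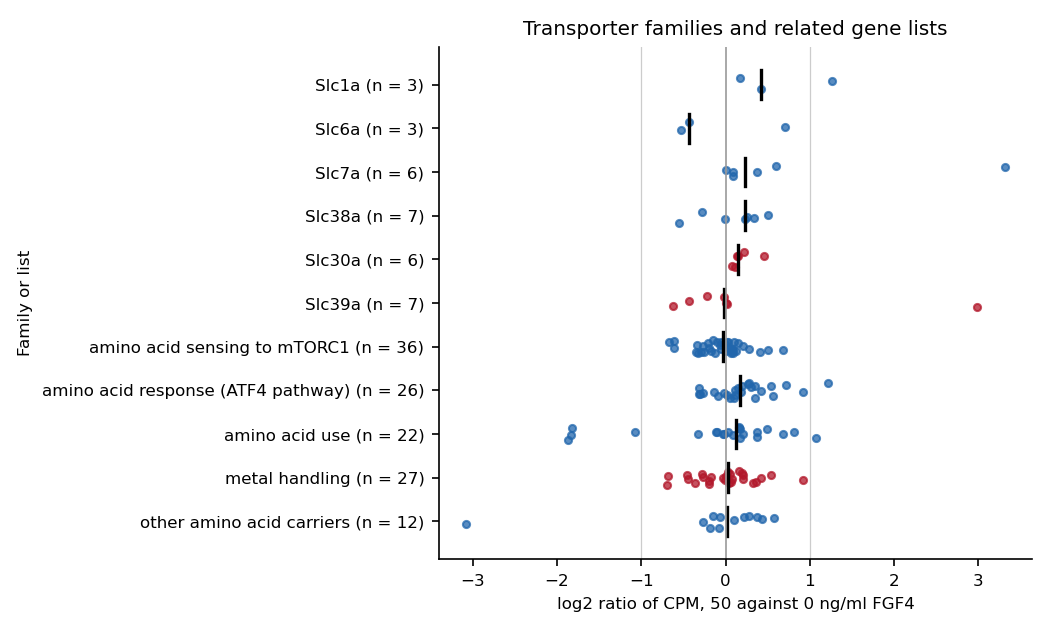
Log2 ratio of CPM at 50 against 0 ng/ml FGF4 (x axis) for each measured gene of 6 transporter families and 5 related lists (y axis); points are genes, black bars medians and grey lines mark no difference and 2-fold. The farthest points to the right are Slc7a7 in Slc7a (3.32) and Slc39a14 in Slc39a (2.98), and the farthest to the left is Slc15a1 (-3.08).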

How the data were processed

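UMI counts for each gene and cell barcode were deposited by the authors, made with Cell Ranger 4.0.0 per the file headers and aligned to mm10 per the submitters' processing notes. The cells had been detached with trypsin or Accutase before loading (the labels do not say which for each dose). The annotation release and the choice of barcodes were not given in the sources here. Positions came from GENCODE M21 (GRCm38), where all 92 symbols matched, and promoter windows from RefSeq (GRCm38.p6).

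Here, the counts of all cells in each library were added up and expressed per total (CPM), with exact Poisson intervals for levels, conditional binomial intervals for ratios and exact binomial intervals for shares. These intervals cover counting error only, and 3 UMIs equal 0.0702, 0.0399 and 0.0369 CPM at 0, 5 and 50 ng/ml. A sum of 0 was set to 3 UMIs for log2 ratios. Genes averaging 5 CPM were counted as 2-fold apart. Genes were named if they averaged 20 CPM, passed 2-fold, or had a fixed place or a known role. Cells were thinned without replacement to 40000 UMIs (seed 1). Scrublet in scanpy 1.11.5 called 12, 7 and 26 doublets, which the main results keep. Tools were Python 3.11.15, scipy 1.17.1 and edgeR 4.0.16, the last for TMM scaling only. The code was checked on simulated counts. The members, lists and motifs were chosen with earlier results of these data known.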

Additional observations from a re-analysis of the deposited data

How the results depend on the processing

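Under 7 scalings and cell choices, 76 of 90 log2 ratios of named genes kept their direction in each. The other 14 (9 of them at 50 against 5 ng/ml) lay within 0.371 of 0, among them Slc7a3 at 50 against 5 and Slc6a9 at 5 against 0, while 0 of the 19 that were 2-fold apart changed direction. Of 630 values, 593 moved within counting error. Slc7a7 ranged from 3.18 to 3.36 and Slc39a14 from 2.95 to 3.1 at 50 against 0 ng/ml, and Slc1a3 from 0.93 to 1.07 at 5 against 0. Without a level filter beyond 3 UMIs in 1 library, 73 members were counted. Of these, 13 were 2-fold apart (4 higher, 9 lower) at 5 against 0 and 17 (5 higher, 12 lower) at 50 against 0. At 50 against 5 there were 3 (0 higher, 3 lower). Of all 19614 genes, 7.13% were then higher and 9.51% lower at 5 against 0, and 7.44% and 11.6% at 50 against 0. At 50 against 5 these shares were 3.8% and 4.96%. The median of the members at 50 against 0 was then -0.00659. With a mean of 20 CPM both counts against 0 were 1, the higher Slc7a7. Of all 5420 genes at that level, 1.38% were higher and 0.849% lower at 5 against 0, and 1.64% and 1.33% at 50 against 0. With a limit of 1.5-fold both counts against 0 were 6. All were higher at 5 against 0, while at 50 against 0 they included Slc39a1, which was 1.55-fold lower. The share over all genes was not computed there, so these counts have no background to be read against. The median at 50 against 5 ng/ml, which lay next to 0, was 0.0252 with TMM, 0.0338 with median of ratios, 0.00693 with filtered cells, 0.00796 with equal cell numbers and 0.0225 at 20 CPM, and -0.0584 with the mean share per cell; the cause was not tested. Slc39a11 passed the level filter, and was then counted as lower at both doses against 0, at 5 CPM in any library and with totals that left out mitochondrial and ribosomal protein genes. At 7000 UMIs per cell 87 of 90 shares and 33 of 45 Fano factors moved, since fewer UMIs were read. Depth limits genes under 1 CPM, such as Slc40a1 and Slc7a11. No paired analysis was possible because each dose was 1 library.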

Other observations

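Single cells carried much of the spread of a few carriers. At 50 ng/ml, 1 thinned cell held 117 UMIs of Slc7a14, where the next highest held 26 and the median cell 0. It also held 143 UMIs of Zscan4c and 170 of Zscan4d (medians 0), markers of 2-cell-like cells, and 3 of Pou5f1 (median 15). The Fano factor of Slc7a14 was 7.19, 11.7 and 39.4 at 0, 5 and 50 ng/ml over all thinned cells, and 7.22 at 50 ng/ml without this cell. In the library without FGF4, 1 thinned cell held 58 UMIs of Slc3a2, where the next highest held 37 and the median cell 6. The same cell had the highest Slc38a2 count (19 UMIs, median 6). It also held 31 UMIs of Ddit3 (median 0), a stress transcription factor, 30 of Atf4 (median 5), and 200 and 246 of the metallothioneins Mt1 and Mt2 (medians 36 and 28). Its total was 56132 UMIs with 3.88% mitochondrial UMIs. The Fano factor of Slc3a2 at 0 ng/ml was 3.61 with this cell and 2.51 without it, against 1.77 and 1.81 at 5 and 50 ng/ml.

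For the creatine carrier Slc6a8 at 0 ng/ml, 1 cell held 29 UMIs (median 1), and the Fano factor was 3.25 with it and 1.96 without it. These cells were picked after their values were seen, and each is 1 cell of 1 library.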
